A study of Mus musculus with 6 samples.

Results

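Genes of voltage-gated sodium, calcium and HCN channels, and of all potassium channels, were described in sorted cells of the mouse medial ganglionic eminence (MGE). The genes were taken by name, without regard to their values: every gene of the authors' normalized table whose symbol begins with Kcn, with Scn, Cacna, Cacnb or Cacng and a digit, or with Hcn and a digit. This gave 119 of the 18065 genes in that table, under 118 symbols, because Kcnb2 appears under 2 gene identifiers. They divide into 78 Kcn, 12 Scn, 25 Cacn and 4 Hcn genes. A further 20 names in the raw table had at most 9 reads in any library and lie outside the normalized table.

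The MGE is a ventral domain of the embryonic forebrain whose progenitors form many cortical interneurons. All 6 libraries came from C57BL/6 embryos at embryonic day E11.5 that carried the Nkx2.1-Cre driver and the ROSAloxSTOPloxTdTomato reporter, which Cre switches on, and TdTomato-positive telencephalic cells were sorted by flow cytometry. The 4 control libraries had no further allele. The 2 heterozygous libraries also carried Magoh lox/+, so that Cre removes 1 copy of Magoh, which belongs to the exon junction complex deposited on spliced mRNA, in cells of the Nkx2-1 lineage and their descendants, with the other copy intact. The labels do not say whether each library was a separate embryo, and p-values then measure the spread between these libraries only. Nkx2-1, the lineage marker, ranged from 339 to 561 CPM in controls and was 349 and 466 CPM in heterozygous libraries.

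Voltage-gated channels open when the membrane depolarizes. Sodium channels carry the upstroke of the action potential, calcium channels couple depolarization to calcium entry, and potassium channels repolarize the cell and set its resting potential. Pore subunits (alpha subunits) hold the ion path, and auxiliary subunits change their trafficking and gating. HCN channels open on hyperpolarization and pass a mixed cation current. Much of this machinery is known to appear while newborn neurons mature, and dividing neural progenitors also have potassium and calcium conductances.

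Total counts were 37.4 to 44.2 M reads in controls (M, counts in units of 1e+06) and 42.0 and 49.2 M in heterozygous libraries. A count of 0 allows up to 3 reads, which is 0.061 to 0.0835 CPM (read counts scaled to 1e+06 per library), for counting error only. Magoh ranged from 63.6 to 118 CPM in controls and was 57.1 and 48.6 CPM in heterozygous libraries 1 and 2; its log2 fold change was -0.62, standard error (SE) 0.27 (edgeR quasi-likelihood test, Benjamini-Hochberg adjusted p = 0.850). No Y-linked reads (0) were found in control 2 and heterozygous library 1, against 3453 to 4291 in the others, and long transcripts were lower in those libraries. Differences are therefore also given within each kind of library: heterozygous 1 minus control 2 (without Y-linked reads), and heterozygous 2 minus the mean of controls 1, 3 and 4 (with them). Neither of these contrasts has replicates in both groups. Both use log2 CPM with a prior count of 2 rather than the edgeR fit. The prior makes differences of genes with few reads smaller.

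The 250 bases before a RefSeq transcription start (GRCm38.p6, the assembly behind mm10) were read for the 81 channel genes with an entry in the promoter table. Those of 4 genes are shown, because 3 of them were among the 4 channel genes with the smallest edgeR p between genotypes, and Kcnn1 is the most abundant paralog of Kcnn3. Each is written 5′ to 3′ on the strand of transcription. Capitals mark matches, on either strand, to GGGCGG (the GC box bound by Sp factors) or CAGCTG (an E-box core bound by basic helix-loop-helix factors); the other 4 motifs searched had no match in these windows.
Kcnn3, chr3:89519914-89520163, plus strand: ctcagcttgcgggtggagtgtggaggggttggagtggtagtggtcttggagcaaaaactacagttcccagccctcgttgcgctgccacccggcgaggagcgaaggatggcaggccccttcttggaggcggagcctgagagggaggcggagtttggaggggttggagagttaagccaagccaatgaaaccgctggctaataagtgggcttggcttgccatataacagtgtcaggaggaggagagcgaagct
Kcnn1, chr8:70863259-70863508, minus strand: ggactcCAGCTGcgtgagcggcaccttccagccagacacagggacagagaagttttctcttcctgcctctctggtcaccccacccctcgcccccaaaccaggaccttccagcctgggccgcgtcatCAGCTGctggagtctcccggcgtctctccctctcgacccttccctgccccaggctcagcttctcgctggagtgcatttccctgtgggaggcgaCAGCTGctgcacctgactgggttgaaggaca
Kcnab1, chr3:65108764-65109013, plus strand: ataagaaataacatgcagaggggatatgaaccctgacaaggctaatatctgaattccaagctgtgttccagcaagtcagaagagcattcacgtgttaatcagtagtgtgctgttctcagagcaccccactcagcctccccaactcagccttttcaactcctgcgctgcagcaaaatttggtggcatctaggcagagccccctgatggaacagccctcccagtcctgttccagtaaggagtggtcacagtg
Kcnh1, chr1:192190527-192190776, plus strand: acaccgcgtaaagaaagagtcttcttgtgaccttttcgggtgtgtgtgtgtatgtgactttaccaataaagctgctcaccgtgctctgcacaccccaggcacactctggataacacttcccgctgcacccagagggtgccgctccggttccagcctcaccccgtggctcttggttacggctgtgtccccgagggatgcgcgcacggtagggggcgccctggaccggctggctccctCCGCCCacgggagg
The Kcnn1 window holds 3 E-box cores and the Kcnh1 window 1 GC box, while the windows shown for Kcnn3 and Kcnab1 hold none of the motifs. Kcnab1 has 3 RefSeq starts and Kcnn1 has 2; for Kcnab1 the start nearest to the gene's annotated start is shown. The window of the first-listed Kcnab1 start, not shown, holds 2 GC boxes, and that of the other Kcnn1 start holds 1 GC box and 1 E-box core. Exons of Kcnn1 overlap those of A230052G05Rik, an unclassified transcript on the opposite strand, over 132 bases.

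Across the 81 genes, with the earliest-listed start taken for each gene (for Kcnab1 not the one shown), 41 windows (50.6%) held a GC box, against 32.9% of the 27025 windows in the table, and 21 (25.9%) held CAGCTG, against 12.8%. The TATA box letters TATAAA were present in 2 (2.47%), against 13.0%. The homeodomain core TAATTA was in 0, against 4.90%. RE1 is the element bound by REST, a repressor of neuronal genes. Its left part TTCAGCACC occurred in 1 window, that of Kcnh6 (1.23%, against 0.285%), and its right part GGACAGC in 9 (11.1%, against 5.29%). Windows of the 81 genes had a median GC content of 61.2% and an observed-to-expected CpG ratio of 0.515. All windows in the table had 52.0% and 0.378. The motif shares were not adjusted for this difference in base content. Windows of the 20 channel genes with the highest levels had 65.8% and 0.734, and those of the 20 lowest 58.4% and 0.417. Motif matches are descriptions of these letters and not measured binding.

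Levels of different genes were compared as RPKM, here CPM per kilobase of annotated exons, averaged over the 6 libraries. Calcium channel auxiliary subunits were at the top. Cacng7, a gamma subunit of the group that also regulates AMPA receptors (TARPs), stood at 38.0 ± 4.63 RPKM (SD, n = 6). Cacnb3, a cytoplasmic beta subunit that brings calcium channels to the membrane, stood at 35.5 ± 7.43 RPKM (SD, n = 6), and Cacng4, another TARP, at 32.1 ± 7.84 RPKM (SD, n = 6). These 3 genes overlapped in range (21.2 to 48.5 RPKM over all libraries) and their order is not separated by the spread. All 3 lay above the next gene, Kcnh2, in every library, since Kcnh2 ranged from 9.38 to 15.6 RPKM. Kcnh2, the ERG channel, is a potassium channel best known for cardiac repolarization.

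Kcnn1, Cacna1h, Kcne1l and Cacnb1 followed, with means of 9.23, 8.37, 8.18 and 7.50 RPKM and overlapping ranges. Kcnn1 is a small-conductance calcium-activated (SK) potassium channel, Cacna1h a low-threshold (T-type) calcium channel, and Kcne1l a single-pass accessory subunit. Of the calcium channel pore subunits, Cacna1h was above the next, Cacna1g (1.98 ± 0.608 RPKM, SD, n = 6), in every library. The N-type pore Cacna1b and the P/Q-type pore Cacna1a stood at 1.79 and 1.55 RPKM, and the L-type pores Cacna1c and Cacna1d at 0.220 and 0.165 RPKM. Cacna2d2, an extracellular alpha2delta subunit, stood at 4.26 RPKM and Cacna2d1 at 2.36 RPKM.

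Sodium channel pores were lower. Scn3a, known as the embryonic brain isoform, was highest at 2.12 ± 0.575 RPKM (SD, n = 6), followed by Scn8a at 1.05 RPKM. Scn2a1 (now Scn2a) and Scn1a, the other main brain pores, stood at 0.342 and 0.121 RPKM. The beta subunits Scn3b and Scn2b, which modulate gating and adhesion, stood at 3.93 and 2.37 RPKM. Among other potassium pores, Kcna3 stood at 4.14 RPKM, Kcnk5 (a pH-sensitive background channel) at 4.11 and Kcnj10 (an inward rectifier of glia and progenitors) at 2.99 RPKM, with overlapping ranges. Hcn4 and Hcn3 stood at 4.89 and 4.25 RPKM, and Hcn2 at 1.22 RPKM. The electrically silent Kv subunits, which act only with Kcnb partners, all stood at 0.502 RPKM or less.

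**Figure D1:**
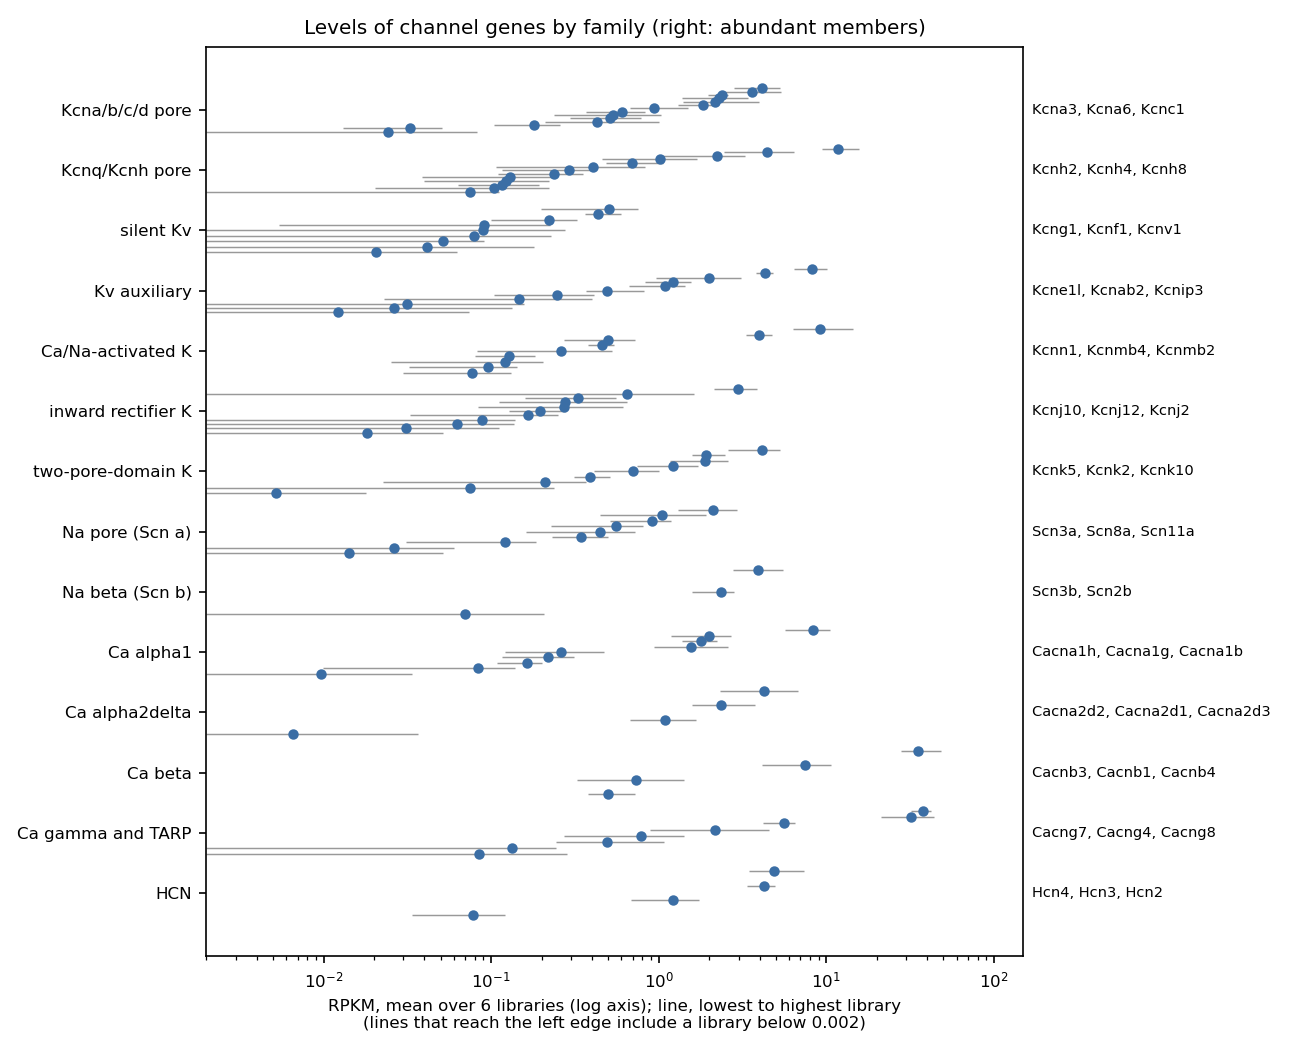
Mean RPKM over the 6 libraries (log axis) for the channel genes of each family, with lines from the lowest to the highest library and up to 3 abundant genes of each family named at the right. Cacng7, Cacnb3 and Cacng4 lie between 32.1 and 38.0 RPKM.

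Several families sit side by side in the genome, and neighbours differed in level. On chromosome 2, between 65457118 and 66784914 (GRCm38), Scn3a, Scn2a1, Scn1a, Scn9a and Scn7a stood at 2.12, 0.342, 0.121, 0.446 and 0.0142 RPKM. On chromosome 7, between 3332955 and 3435667, Cacng7, Cacng8 and Cacng6 stood at 38.0, 5.57 and 0.133 RPKM. On chromosome 11, between 107703218 and 107915055, Cacng4 stood at 32.1 RPKM between Cacng1 (0.0843) and Cacng5 (0.492). In the Kcna group on chromosome 6, between 126532551 and 126740674, Kcna6 was highest at 2.39 RPKM, ahead of Kcna5 (0.941) and Kcna1 (0.429). Exons of Kcna6 overlap the antisense gene Gm26673 over 39.6% of their length. The strand setting of the authors' counting is unknown here, and reads of such pairs cannot be told apart.

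Detection was broad. Of the 119 genes, 94 had reads in every library, 81 averaged at least 1 CPM and 30 at least 10 CPM. The number with 0 reads was 6, 13, 7 and 9 in controls 1 to 4 and 13 in each heterozygous library. The test between genotypes covered 108. The 11 that its filter on low counts left out included Kcns1, Kcna4, Kcnk9, Kcne1, Kcne2, Kcne4, Kcnj8, Kcnj16, Cacna1s and Cacna2d4.

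No channel gene passed the edgeR test between genotypes. With edgeR's quasi-likelihood test and Benjamini-Hochberg adjustment over all 16495 tested genes, 0 of 108 channel genes had an adjusted p under 0.05, and 0% of all genes did (smallest adjusted p = 0.793). DESeq2 called 1 channel gene, Kcnn3, which was lower, against 0.362% of the 16835 genes with a DESeq2 adjusted p (0.333% lower). Before adjustment, 9 channel genes were higher with p under 0.05, against 1.75% of all genes, and 5 lower, against 3.98%. Both heterozygous libraries lay above every control for 11 of 108 channel genes (10.2%), against 6.17% of all genes, and below every control for 9 (8.33%), against 8.14%. These counts depended on single libraries. The count above every control was 24 without control 1 (22.4%, against 8.70% of all genes), 14 without control 2 (13.1%, against 16.7%), 40 without heterozygous library 1 (36.4%, against 20.8%) and 24 without heterozygous library 2 (21.4%, against 17.6%). The count below every control was 15 without control 2 (14.0%, against 18.7%), 15 without heterozygous library 1 (13.6%, against 22.2%) and 25 without heterozygous library 2 (22.3%, against 18.4%).

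In the fit over all 6 libraries, the direction split with the level of the gene. Of all 108, 60 had a log2 fold change above 0 (55.6%, against 46.1% of all genes), with a median of 0.05, against -0.03 for all genes. Of the 30 that averaged 10 CPM or more, 20 were above 0 (66.7%, against 48% of all genes at that level), with a median of 0.16; 4 had both heterozygous libraries above every control (13.3%, against 5.85%) and 0 had both below (against 6.25%). Of the 51 between 1 and 10 CPM, 28 were above 0 (54.9%, against 42.2%), with 5 above every control (9.80%, against 6.4%) and 6 below (11.8%, against 10.8%). Of the 27 tested genes under 1 CPM, 12 were above 0 (44.4%, against 45.1%), with a median of -0.43. Of these, 2 lay above every control (7.41%, against 6.82%) and 3 below (11.1%, against 10.5%). The direction depended on the heterozygous library. Genes averaging 10 CPM or more summed to 828 to 1201 CPM in controls, and to 1010 and 1337 CPM in heterozygous libraries 1 and 2. Without heterozygous library 2 the median of the channel genes was -0.13, against -0.05 for all genes. Without heterozygous library 1 it was 0.18, against -0.06.

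**Figure D2:**
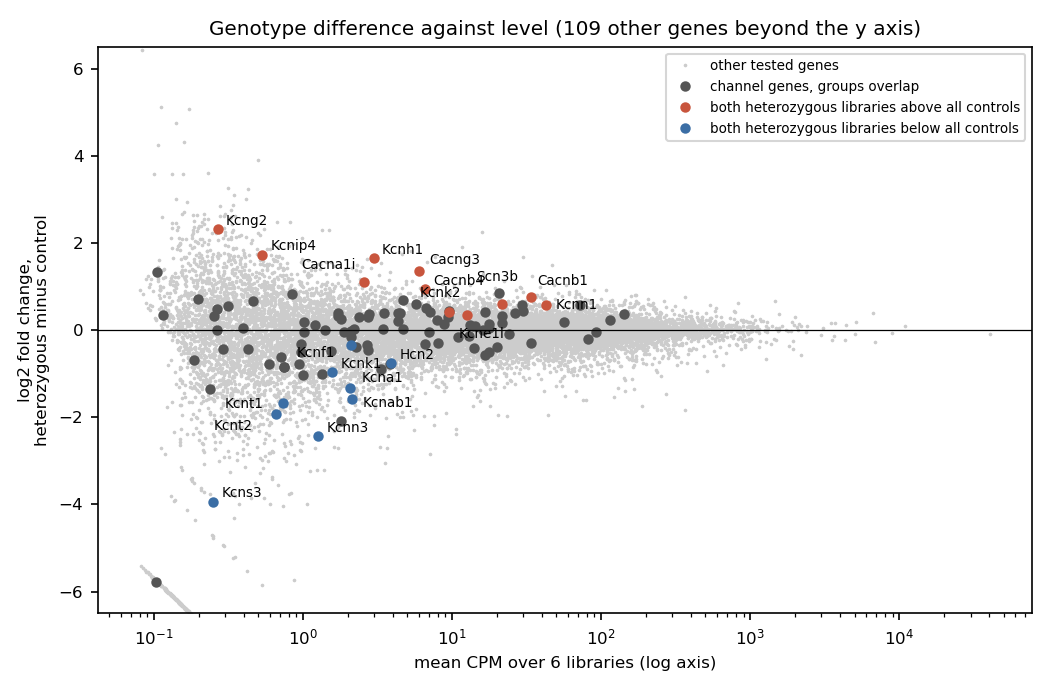
Fitted log2 fold change, heterozygous minus control, against mean CPM over 6 libraries (log axis), for every tested gene (grey) and the channel genes (dark and coloured). Coloured points are the 11 channel genes above and the 9 below every control; those averaging 10 CPM or more lie only above 0, and Kcnn3 is the lowest of those averaging 1 CPM or more.

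Among calcium- and sodium-activated potassium channels, members lay on both sides. Kcnn3 (ENSMUSG00000000794; chromosome 3, 89520164 to 89675132, plus strand, GRCm38), the SK channel of many midbrain and forebrain neurons, stood at 2.14, 1.17, 1.59 and 2.01 CPM in the controls (1 to 4, the order used throughout) and at 0.377 and 0.264 CPM in the heterozygous libraries. The groups did not overlap, and the lowest control, control 2, was also without Y-linked reads. The log2 fold change was -2.42 with an SE of 0.52 (edgeR, adjusted p = 0.793; DESeq2, adjusted p = 0.0214). It was -1.52 in libraries lacking Y-linked reads and -2.64 in the others, and ran from -3.01 to -2.19 over 18 alternatives, the lowest being heterozygous library 2 against control 1 alone. The heterozygous values rest on 16 and 13 reads.

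Kcnn1 (ENSMUSG00000002908; chromosome 8, 70842049 to 70863258, minus strand), whose upstream window is printed above beside that of Kcnn3, lay the other way. It stood at 40.0, 29.1, 38.6 and 37.5 CPM in controls and 42.7 and 66.2 CPM in the heterozygous libraries. Both heterozygous values were above every control, the first by little. Its log2 fold change was 0.59 with an SE of 0.22 (edgeR, adjusted p = 0.850), and ran from 0.23 to 0.88 over the alternatives. The third SK gene tested, Kcnn2, had a log2 fold change of 0.02 with an SE of 0.29.

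The sodium-activated channels Kcnt1 and Kcnt2, which are known to carry a slow potassium current after bursts of spikes, are named here after their values were seen. Kcnt2 stood at 0.858, 0.890, 0.774 and 0.985 CPM in controls and 0.236 and 0.224 CPM in the heterozygous libraries, from 10 and 11 reads in the last pair. Kcnt1 stood at 0.965, 0.362, 1.22 and 1.25 CPM in controls and 0.283 and 0.305 CPM in heterozygous libraries. Neither gene overlapped between groups, and control 2 was the control nearest to the heterozygous values for Kcnt1. The log2 fold changes were -1.92 with an SE of 0.64 and -1.68 with an SE of 0.73. In libraries lacking Y-linked reads they were -1.73 and -0.31, and in the others -1.76 and -1.75. Of the 9 genes in the family, 4 were above 0 and 5 below, with a median of -0.48. The BK beta subunits Kcnmb4 and Kcnmb2 had log2 fold changes of 0.12 and -0.48 with SEs of 0.21 and 0.50.

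Among Kv pore subunits of the Kcna to Kcnd subfamilies, 9 of 14 tested lay above 0, with a median of 0.14. Kcna1 (ENSMUSG00000047976; chromosome 6, 126640397 to 126646384), a low-threshold delayed rectifier of axons, stood at 2.57, 1.39, 1.503 and 4.79 CPM in controls and 1.04 and 0.997 CPM in heterozygous libraries. It was below every control, and control 4 was far above the other controls. Kcna1 had a log2 fold change of -1.33 with an SE of 0.59, and -0.41 in libraries lacking Y-linked reads. Kcnd3, an A-type channel of somata and dendrites, had the smallest p of the subfamily above 0 and is named after its values were seen. It stood at 23.1, 13.8, 15.01 and 13.4 CPM in controls and 20.98 and 38.1 CPM in heterozygous libraries. Control 1 lay above heterozygous library 1, so the groups overlapped, and the log2 fold change was 0.86 with an SE of 0.31 (edgeR, adjusted p = 0.841). Kcna3 and Kcna6, abundant genes of the group per length, had values of 0.23 and 0.11 with SEs of 0.29 and 0.19.

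Among Kcnq and Kcnh pores, 9 of 13 lay above 0, with a median of 0.19. Kcnh1 (ENSMUSG00000058248; chromosome 1, 192190774 to 192510159, plus strand), the EAG channel, known for a role in the cell cycle of progenitors and tumour cells, stood at 2.17, 0.779, 1.26 and 2.71 CPM in controls. It stood at 4.81 and 6.10 CPM in heterozygous libraries, above every control. For Kcnh1 the log2 fold change was 1.65 with an SE of 0.47 (edgeR, adjusted p = 0.793). It was 2.55 in libraries lacking Y-linked reads and 1.62 in the others, and ran from 1.43 to 1.98 over the alternatives. Kcnh2 and Kcnh4 had log2 fold changes of 0.19 and 0.13 with SEs of 0.23 and 0.47.

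Auxiliary subunits of Kv channels lay mostly above 0 (6 of 8 tested, median 0.40), and Kcnab1 lay far below. Kcnab1 (ENSMUSG00000027827; chromosome 3, 65109384 to 65378223, plus strand), a cytoplasmic beta subunit that speeds inactivation of Kcna channels, stood at 1.96, 2.53, 2.92 and 3.56 CPM in controls and 0.896 and 0.936 CPM in heterozygous libraries. Every control was above both heterozygous libraries, which were close together. The log2 fold change was -1.58 with an SE of 0.40 (edgeR, adjusted p = 0.793; DESeq2, adjusted p = 0.0930). It was -1.45 in libraries lacking Y-linked reads and -1.498 in the others, and ran from -1.71 to -1.06 over the alternatives. Its paralog Kcnab2, far more abundant, had a log2 fold change of -0.09 with an SE of 0.18. Kcne1l (chromosome X, 142304752 to 142306294) stood at 10.9, 12.7, 9.97 and 12.8 CPM in controls and 15.5 and 13.9 CPM in heterozygous libraries, above every control, with a log2 fold change of 0.34 and an SE of 0.20.

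The electrically silent subunits were split, 4 of 8 tested above 0, and all but 3 of the 9 averaged under 1 CPM. Kcnf1 stood at 1.85, 2.84, 2.30 and 1.99 CPM in controls and 1.74 and 1.81 CPM in heterozygous libraries. Both were below every control, but by less than the spread of the controls, and the log2 fold change was -0.34 with an SE of 0.35. Kcng1 overlapped between groups, with a log2 fold change of -0.38 and an SE of 0.55.

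Inward rectifiers, which hold the resting potential near that of potassium, lay above 0 in 3 of 9 tested genes (33.3%, against 46.1% of all genes). Their median was -0.61. The groups separated for 0 of the 9 inward rectifiers (against 6.17% above and 8.14% below among all genes), which for so few genes is near that background. Kcnj10 stood at 18.6, 14.6, 16.8 and 14.5 CPM in controls and 20.9 and 11.53 CPM in heterozygous libraries. The heterozygous libraries enclosed all the controls, and the log2 fold change was 0.01 with an SE of 0.26. Kcnj12 stood at 2.63, 0.751, 1.75 and 4.498 CPM in controls and 0 and 1.12 CPM in heterozygous libraries. Its controls ranged widely and overlapped heterozygous library 2, and the log2 fold change was -2.09 with an SE of 1.28. For Kcnj12 it was -3.99 with limma-voom and -1.09 without heterozygous library 1; without heterozygous library 2 the only heterozygous value left is 0, and the fitted value of -9.63 is then no measure of size.

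Of the tandem-pore (K2P) background potassium channels, 6 of 8 tested lay above 0, with a median of 0.37. Kcnk2 (TREK-1, opened by stretch and lipids; chromosome 1, 189207930 to 189402273) stood at 9.06, 8.90, 7.78 and 8.28 CPM in controls and 10.5 and 12.4 CPM in heterozygous libraries. Both were above every control, and the log2 fold change was 0.43 with an SE of 0.20, with 12.2% of its exons overlapped by an antisense gene. Kcnk1 (TWIK-1; chromosome 8, 125995170 to 126030685) stood at 2.25, 2.14, 1.22 and 1.90 CPM in controls and 1.01 and 0.915 CPM in heterozygous libraries. Both were below every control, control 3 being nearest, and the log2 fold change was -0.96 with an SE of 0.43. Kcnk5 and Kcnk10 overlapped between groups, with log2 fold changes of -0.41 and 0.43 and SEs of 0.25 and 0.26.

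Sodium channel pores lay below 0 in 6 of 9 genes (median -0.56), and the groups separated for 0 of them (against 6.17% above and 8.14% below among all genes), again near that background. Scn3a stood at 31.5, 22.2, 25.5 and 16.2 CPM in controls and 26.1 and 36.8 CPM in heterozygous libraries. Scn8a stood at 18.3, 12.9, 30.3 and 12.5 CPM in controls and 7.0004 and 18.1 CPM in heterozygous libraries. In both genes the heterozygous libraries lay apart from each other, with heterozygous library 2 the higher. The log2 fold changes were 0.40 and -0.56, with SEs of 0.28 and 0.48. For Scn3a the value was 0.13 without heterozygous library 2 and 0.64 without heterozygous library 1. For Scn8a it was -1.41 and -0.018 in the same order, and -0.21 without control 3. Of the beta subunits, Scn3b (ENSMUSG00000049281; chromosome 9, 40269217 to 40291618) stood at 22.9, 15.1, 17.7 and 17.3 CPM in controls and 25.3 and 30.3 CPM in heterozygous libraries. Both were above every control, and the log2 fold change was 0.61 with an SE of 0.21 (edgeR, adjusted p = 0.832). It was 0.75 in libraries lacking Y-linked reads and 0.66 in the others. Scn2b had a log2 fold change of -0.15 with an SE of 0.26.

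**Figure D3:**
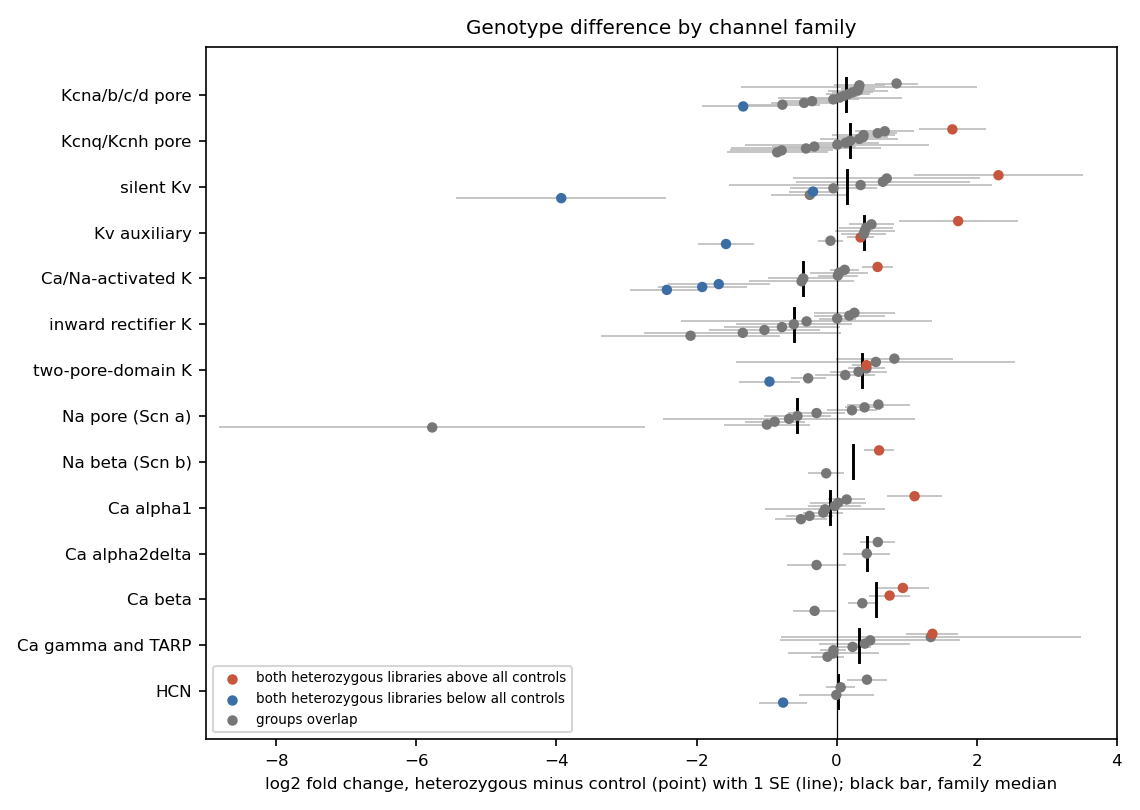
Fitted log2 fold change, heterozygous minus control, of each tested channel gene with its SE (line), by family, and the family median (black bar). Inward rectifiers, sodium channel pores and calcium- or sodium-activated potassium channels have medians of -0.61, -0.56 and -0.48, while calcium channel beta subunits have 0.56. Of the 9 tested genes in each of the families below 0 named here, 5, 7 and 6 averaged at least 1 CPM. All 4 beta subunits did. The 27 tested channel genes under 1 CPM had a median of -0.43, and family and level were not separated.

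Among calcium channel genes, 13 of 23 tested lay above 0 (56.5%, against 46.1% of all genes). Both heterozygous libraries lay above every control for 4 (17.4%, against 6.17%) and below every control for 0 (against 8.14%). The pore subunits were split, with 3 of 8 above 0. Cacna1i (ENSMUSG00000022416; chromosome 15, 80287238 to 80398279), the T-type pore with the slowest kinetics, stood at 2.71, 1.61, 1.19 and 1.88 CPM in controls and 4.67 and 3.34 CPM in heterozygous libraries. Both were above every control, and the log2 fold change was 1.11 with an SE of 0.39 (edgeR, adjusted p = 0.833). The difference was 1.505 without Y-linked reads and 0.85 with them, with a range of 0.30 to 1.36 over the alternatives. The other T-type pores overlapped between groups: Cacna1h had a log2 fold change of -0.19 with an SE of 0.29, and Cacna1g -0.39 with an SE of 0.34. Cacna1b had 0.14 with an SE of 0.26.

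Of the 4 beta subunits, 3 lay above 0, with a median of 0.56. Cacnb1 (ENSMUSG00000020882; chromosome 11, 98001508 to 98023034) stood at 39.2, 18.9, 30.7 and 21.7 CPM in controls and 45.0 and 48.3 CPM in heterozygous libraries. Cacnb4 (ENSMUSG00000017412; chromosome 2, 52428320 to 52676831) stood at 5.90, 5.73, 5.66 and 2.91 CPM in controls and 6.67 and 12.8 CPM in heterozygous libraries. Both genes were above every control, and for Cacnb4 heterozygous library 1 exceeded the highest control by little. The log2 fold changes were 0.76 with an SE of 0.29 and 0.95 with an SE of 0.37 (edgeR, adjusted p = 0.850 for each). In libraries lacking Y-linked reads they were 1.25 and 0.22, and in the others 0.70 and 1.46. The Cacnb4 value was 0.40 without heterozygous library 2 and 1.35 without heterozygous library 1. An opposite-strand transcript overlaps 15.99% of the Cacnb4 exons. Cacnb3, the most abundant, stood at 154, 112, 136 and 117 CPM in controls and 141 and 194 CPM in heterozygous libraries; control 1 overlapped, and the log2 fold change was 0.37 with an SE of 0.20.

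Of the alpha2delta subunits, Cacna2d1 had a log2 fold change of 0.59 with an SE of 0.25 and Cacna2d2 -0.29 with an SE of 0.42, with overlapping groups. Among gamma subunits and TARPs, Cacng3 (ENSMUSG00000066189; chromosome 7, 122670492 to 122769393, plus strand), a TARP that carries AMPA receptors to synapses, stood at 5.04, 5.20, 2.48 and 3.07 CPM in controls. It stood at 7.64 and 12.7 CPM in heterozygous libraries, above every control. The log2 fold change was 1.37 with an SE of 0.37 (edgeR, adjusted p = 0.793; DESeq2, adjusted p = 0.114). It was 0.55 in libraries lacking Y-linked reads and 1.90 in the others, and ran from 0.95 to 1.86 over the alternatives. The abundant TARPs Cacng7, Cacng4 and Cacng8 overlapped between groups, with log2 fold changes of -0.05, 0.23 and -0.13 and SEs of 0.19, 0.27 and 0.23.

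HCN channels were split, 2 of 4 above 0. Hcn2 (ENSMUSG00000020331; chromosome 10, 79716634 to 79736108) stood at 5.28, 3.37, 5.59 and 3.85 CPM in controls and 3.13 and 2.20 CPM in heterozygous libraries. Both were below every control, heterozygous library 1 by little. For Hcn2 the log2 fold change was -0.76 with an SE of 0.34 (edgeR, adjusted p = 0.850), -0.10 in libraries lacking Y-linked reads and -1.12 in the others. Hcn4 stood at 36.7, 21.1, 23.1 and 26.2 CPM in controls and 27.0 and 45.4 CPM in heterozygous libraries, which overlapped. Its log2 fold change was 0.43 with an SE of 0.29, but 0.0054 without heterozygous library 2 and 0.77 without heterozygous library 1, and that of Hcn3 was 0.06 with an SE of 0.20.

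**Figure D4:**
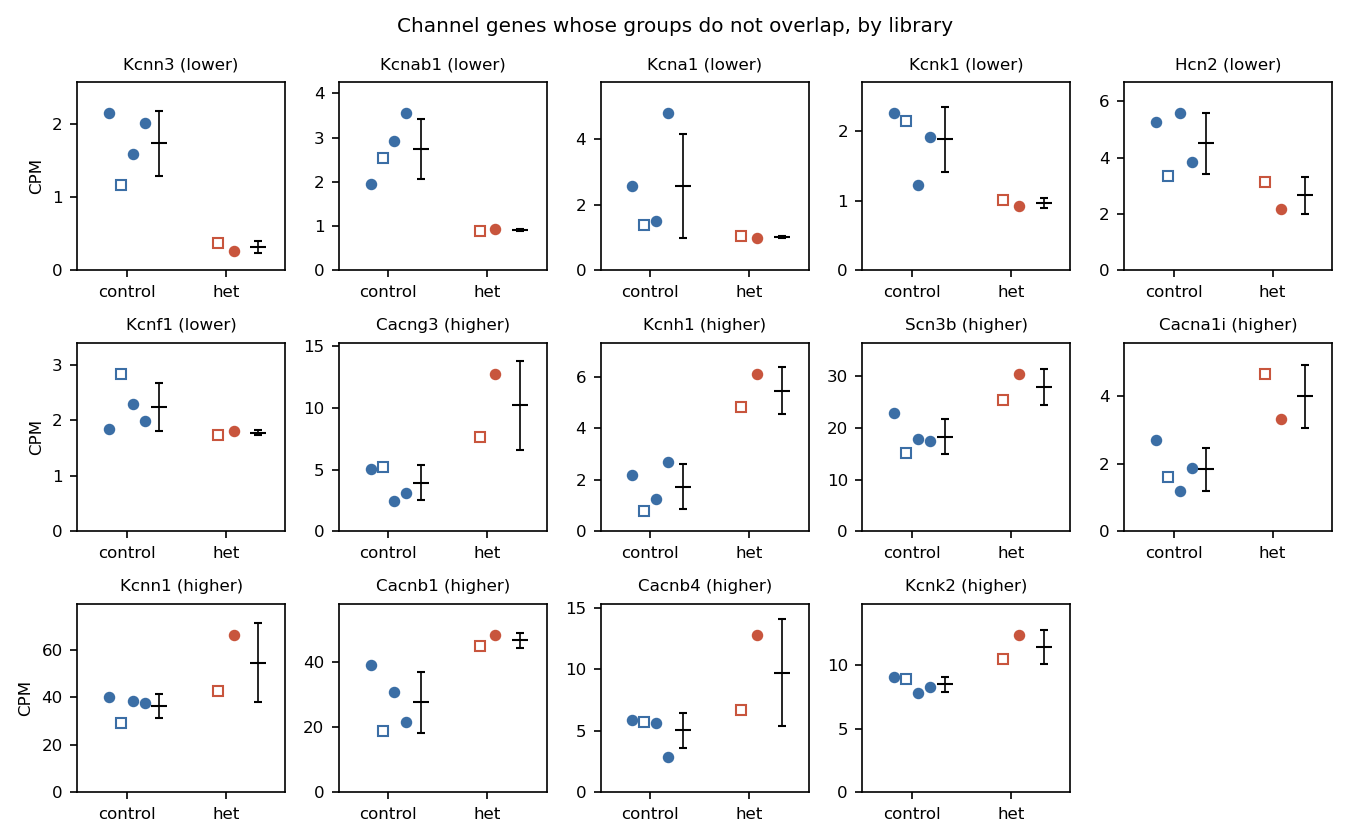
CPM in each library for the 14 channel genes averaging 1 CPM or more chosen for the smallest p among those whose groups do not overlap; bars are the mean ± SD, and open squares mark control 2 and heterozygous library 1, which had no Y-linked reads. For Kcnn3 the controls lie between 1.17 and 2.14 CPM, above both heterozygous libraries at 0.377 and 0.264 CPM.

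Channel genes are long, and the libraries differed by transcript length. Tested channel genes had a median exon length of 5215 nt, against 4077 nt for all tested genes, and a median genomic span of 59.7 kb, against 20.8 kb; 41 of the 107 with an annotated length (38.3%) spanned at least 100 kb, against 13.8%. For channel genes of 8000 nt or more, the median deviation from the control mean was 0.34, -0.42, 0.13 and -0.05 log2 units in controls 1 to 4 and -0.07 and 0.25 in heterozygous libraries 1 and 2. For all tested genes of 8000 nt or more the values were 0.15, -0.38, 0.19 and 0.04 in controls 1 to 4. They were -0.20 and 0.004 in heterozygous libraries 1 and 2. The fall of control 2 was thus shared with all long genes, while the rise of heterozygous library 2 was not. For channel genes under 4000 nt all libraries lay between -0.09 and 0.10. Control 2 was the lowest control for 50 of 108 channel genes (46.3%), against 37.4% of all genes. Summed over all channel genes, controls stood at 1429.7, 993, 1295 and 1131 CPM and heterozygous libraries at 1206 and 1583 CPM. The groups overlapped in this sum, with control 2 lowest and heterozygous library 2 highest. After loess removal of length and GC trends in every library, the median log2 fold change of the 108 genes was 0.17, against 0.03 for all genes, and 17 rather than 11 lay above every control (15.7%, against 9.59% of all genes). Kcnn3, Kcnab1, Cacng3 and Kcnh1 then had log2 fold changes of -2.27, -1.48, 1.38 and 1.79.

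**Figure D5:**
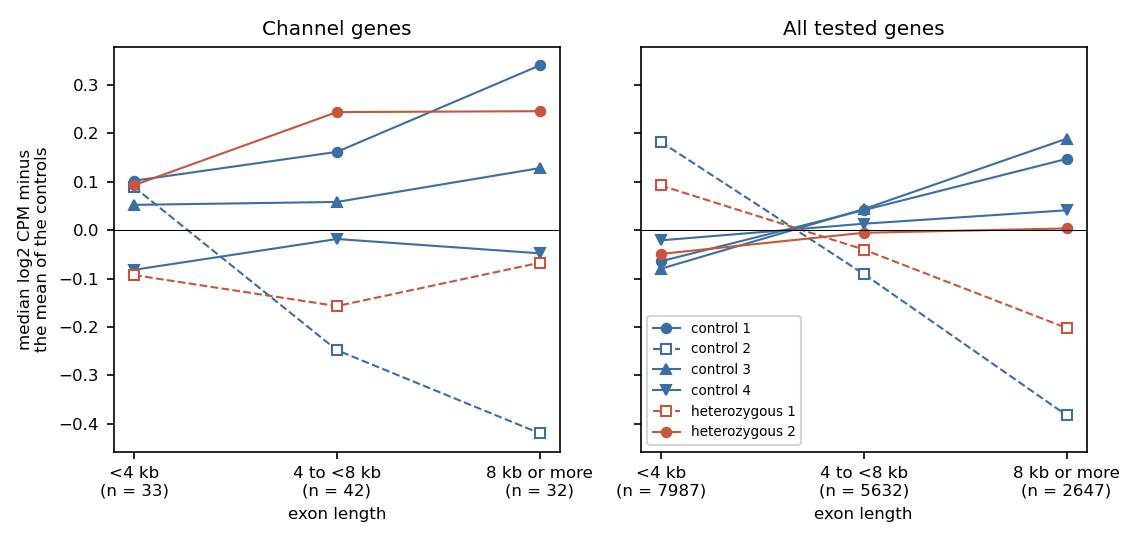
Median log2 CPM in each library minus the mean of the controls, by exon length, for channel genes (left) and all tested genes (right); dashed lines with open squares are the libraries without Y-linked reads. Control 2 falls to -0.42 among channel genes of 8000 nt or more, while control 1 and heterozygous library 2 lie at 0.34 and 0.25. Among all tested genes of that length, control 2, control 1 and heterozygous library 2 lie at -0.38, 0.15 and 0.004.

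In the fit over all 6 libraries, neuronal markers lay on the same side as the more abundant channel genes. Of 20 pan-neuronal genes, 19 had a log2 fold change above 0 (median 0.52), against 46.1% of all genes. Of the same 20, 8 lay above every control, against 6.17% of all genes. Their summed level was 2616 to 4006 CPM in controls and 4346 and 5293 CPM in heterozygous libraries. Tubb3 was the largest part of this sum, at 994 to 1555 CPM in controls and 1884 and 2008 CPM in heterozygous libraries. Without Tubb3 the sums overlapped, with heterozygous library 1 below control 1. Of 15 radial glia and progenitor genes, 4 lay above 0, against 46.1% of all genes, and 11 below (median -0.31). Both heterozygous libraries lay below every control for 3 of the 15, against 8.14% of all genes, and above for 0. Their sums were 5242 to 8110 CPM in controls, where the lowest was control 2, and 5217 and 6063 CPM in heterozygous libraries. Of 11 MGE identity genes, 8 lay above 0, against 46.1% of all genes, with 1 above every control and 1 below. They summed to 1215 to 1983 CPM in controls and 1480 and 2528 CPM in heterozygous libraries. None of the markers passed edgeR's adjusted test. In bulk RNA, fewer cells of a type and less RNA per cell cannot be told apart, and the part of cell composition in the channel values was not tested.

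Markers of other cell types were present, with lower sums than those of neurons or progenitors. The highest was the embryonic globin gene Hba-x, which reached 162 CPM in the first heterozygous library against 0.529 CPM in the second. Endothelial genes (10) summed to 7.82 to 29.9 CPM in controls and 14.0 and 9.21 CPM in heterozygous libraries, and pericyte and mesenchyme genes (12) to 133 to 231 and 218 and 88.5 CPM. Erythroid genes (8 of 10 in the table) summed to 30.3 to 136 CPM in controls and 369 and 0.610 CPM, and microglia and macrophage genes (9) to 2.81 to 85.7 and 11.4 and 0.305 CPM. Surface ectoderm genes (12, with Krt14 and Krt15 at 0 in all libraries) summed to 17.1 to 24.3 CPM in controls and 14.5 and 12.1 CPM in heterozygous libraries. Muscle genes (8, with Ckm at 0) summed to 1.36 to 2.73 and 2.52 and 1.14 CPM. Heterozygous library 2 had the lowest erythroid, mesenchyme, microglia, muscle and surface ectoderm sums of the 6 libraries; their part in the channel values was not tested.

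Partners of channels (anchoring proteins, extra auxiliary subunits and regulators of channel transcription) were split. Of 29 tested, 15 lay above 0 and 14 below, with a median of 0.04, and 0 passed edgeR's adjusted test. Both heterozygous libraries were above every control for 3 (10.3%, against 6.17% of all genes), namely Fgf11 and Fgf13, intracellular FGF-like proteins that bind sodium channels, and Stac2, an adaptor of L-type calcium channels. Their log2 fold changes were 0.53, 0.40 and 0.71 with SEs of 0.21, 0.18 and 0.35. Rest stood at 21.5, 5.70, 24.2 and 28.1 CPM in controls and 9.52 and 8.75 CPM in heterozygous libraries. Both heterozygous values were below controls 1, 3 and 4 but above control 2, and the log2 fold change was -1.12 with an SE of 0.55 (edgeR, adjusted p = 0.876).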

How the data were processed

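RNA of TdTomato-sorted MGE cells at E11.5 was sequenced in 4 control and 2 heterozygous libraries. Per the labels' protocols, RNA was column-purified and prepared with a NuGEN mRNA kit, skipping globin depletion. Trim Galore, STAR, HTSeq and the build mm10 are named in the submitters' processing notes. Tool versions, gene annotation and strand setting: not given in the sources used here. The authors deposited a table of raw read counts per gene for 38561 genes, and a table of normalized signal (counts over 1 factor per library) for 18065 genes. Checked against each other, the deposited signal values were the raw counts scaled by a single factor per library, for genes with at least 10 reads in a library.

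The raw counts were tested with edgeR 4.0.16 in R 4.3.3 (filterByExpr, TMM scaling, robust quasi-likelihood fit, two-sided), with Benjamini-Hochberg adjustment over 16495 genes and a threshold of 0.05. CPM are TMM-scaled. RPKM divide CPM by union exon length in kilobases from GENCODE release M21 (GRCm38), to which 36723 gene IDs matched. The SE was derived from the log2 fold change and the F statistic. Deviations by length, and differences within libraries with or without Y-linked reads, use log2 CPM with a prior count of 2. The main edgeR fit was tested on simulated counts, and the other steps were not tested in this way. The smallest two-sided p of an exact permutation test is 0.0667 in this design, so none is given.

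Channel families, partner and marker lists, and the rule for named genes were chosen with earlier results of these data known. The rule names DESeq2 or edgeR calls, Kcnn3, up to 8 higher and 8 lower genes with the smallest p among non-overlapping genes averaging 1 CPM or more, and the 2 or 3 genes with the highest RPKM of each family. Of the 18 alternatives, 6 leave out a library in turn. The others are DESeq2 1.42.0, limma-voom and limma-trend (limma 3.58.1; log2 of the deposited values plus 1 or 0.5), median-of-ratios (RLE) or upper-quartile factors, no filter on counts, a mean of at least 1 CPM, Y-linked reads as a covariate, loess removal of length and GC trends (span 0.5), the sample code number as a block, and leaving out both libraries without Y-linked reads. Promoter windows are from RefSeq (GRCm38.p6) and matched 81 genes; 38 had no match. A planned search of protein sequences for the potassium selectivity filter was not run. Some genes are not reported here.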

Additional observations from a re-analysis of the deposited data

Results flagged for a closer look

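Cacnb4 stood at 5.90, 5.73, 5.66 and 2.91 CPM in the controls. Control 4 was far below the other 3, and its gap to the nearest of them was 0.92 of the range of the group, above the critical value of Dixon's test for 4 samples. Chance marks about 1 in 20 groups in this way, and 42 channel genes were examined. The gene's log2 fold change was 0.95 over all libraries and 0.76 without control 4. It moved further with the heterozygous libraries, to 0.40 without library 2 and 1.35 without library 1.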

How the results depend on the processing

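Of 44 changes of sign among the named genes, all were in genes that passed no test. DESeq2 called 1 channel gene (Kcnn3, adjusted p = 0.0214) and 61 genes in all, where edgeR called 0 of each, and limma-voom, both limma-trend fits and every fit without a library called 0 channel genes. Channel genes above every control numbered 11 (10.2%, against 6.17% of all genes), and 17 with length and GC trends removed (15.7%, against 9.59%). They numbered 44 without the libraries that have no Y-linked reads (40.0%, against 31.3%). Leaving out a library gave 11 to 40 (10.5% to 36.4%, against 7.62% to 20.8%). Those below numbered 9 (8.33%, against 8.14%), and 27 without the libraries that have no Y-linked reads (24.5%, against 34.3%). Leaving out a library gave from 10 below without control 3 (9.35%, against 9.61%) to 25 without heterozygous library 2 (22.3%, against 18.4%). Without heterozygous library 1 there were 15 (13.6%, against 22.2%). Where only 1 heterozygous library was left, the share of all genes rose as well. The median log2 fold change was 0.05, and -0.13 to 0.18 when leaving out a library. limma-voom, the Y-linked covariate and the block give no such counts of their own.

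The sample code number 70 is shared by control 1 and heterozygous library 2, and the labels do not say what it marks. Another number is shared by controls 2 and 3, and the remaining numbers mark 1 library each. With the code number as a replicate block, the genotype term therefore compares heterozygous library 2 with control 1 alone, with 1 residual degree of freedom, and its calls and signs describe that single pair. In that fit edgeR called 11 genes and 0 channel genes, the median was -0.0029, and the log2 fold change was -0.10 for Cacna2d1, -0.086 for Kcnk10, 0.73 for Kcnmb2, -0.073 for Kcna3, 0.099 for Cacna2d2, 0.17 for Kcng1, -0.064 for Kcna6, -0.043 for Cacna1b, 0.27 for Scn2b, -0.27 for Hcn3, -0.082 for Kcnh4, 0.061 for Cacng7 and -0.69 for Kcnj10, each of the opposite sign to the reported value. Without the libraries that have no Y-linked reads, signs turned for Kcnmb2 (0.077), Kcna3 (-0.14), Kcng1 (0.039), Scn2b (0.23), Hcn3 (-0.010), Cacng7 (0.072) and Kcnj10 (-0.52). With the Y-linked covariate they turned for Cacng7 (0.035) and Kcnj10 (-0.093). Kcnj10 was -0.059 with limma-voom and -0.029 with both limma-trend fits. Leaving out a library, usually a heterozygous one, turned the sign within these ranges: Kcnip3 -0.082 to 0.80, Cacng4 -0.15 to 0.54, Kcnh2 -0.18 to 0.50, Kcna3 -0.0046 to 0.43, Cacna2d2 -0.96 to 0.18, Kcng1 -1.46 to 0.23, Cacna1h -0.50 to 0.071, Cacna1b -0.080 to 0.35, Scn2b -0.64 to 0.22, Kcnab2 -0.22 to 0.040, Hcn3 -0.029 to 0.15, Kcnh4 -0.41 to 0.53, Cacng7 -0.26 to 0.15 and Kcnj10 -0.47 to 0.37. The cause was not tested. Named genes that kept their sign but moved by over 1.5 times without 1 library ranged from 0.22 to 0.89 (Cacna2d1), 0.11 to 0.59 (Cacnb3), -0.63 to -0.18 (Cacna1g), -0.78 to -0.11 (Kcnk5), -1.01 to -0.079 (Kcnmb2), 0.24 to 0.60 (Kcnk10), 0.037 to 0.24 (Kcnmb4), 0.035 to 0.16 (Kcna6) and -0.25 to -0.062 (Cacng8) over the fits without a library, beside those given in the report. Kcna1 was -0.84 without control 4 and Kcnf1 -0.19 without control 2. Kcnn3 had 16 and 13 reads in the heterozygous libraries, so depth limits its values.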
